A study of Homo sapiens with 2 samples.

Results

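Heat-shock proteins and their J-domain partners were examined in HCT15, an established colorectal cancer cell line of human origin, in which the nucleolar zinc-finger protein LYAR was targeted by a small hairpin RNA. The genes were chosen by the symbol in the array annotation: names starting with DNAJA, DNAJB, DNAJC, HSPA, HSPB, HSPD1, HSPE1, HSPH1 or HSP90 followed by family numbering, without DNAJB9, HSPA5, HSPBAP1 and HSPBP1. This gave 66 of the 23619 genes on the array, measured by 138 of its 45033 probe sets. The set was selected on earlier knowledge of the differences between the same 2 arrays, so the counts below are descriptions and no test was made.

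The study compared HCT15 cells carrying LYAR-shRNA with HCT15 cells carrying Scramble-shRNA, and each group was 1 single-colour Roche NimbleGen array of total RNA. Both hairpins were delivered in the lentiviral vector pLentiLox 3.7, packaged in 293T cells, and both stable populations were sorted by flow cytometry on GFP, per the labels' protocols. The protocol speaks of 2 LYAR-specific siRNA designs without saying in words which one the profiled cells carried. With 1 array per group there is no replicate check, the number of arrays limits the precision, and each difference below is on the log2 scale, LYAR-shRNA minus Scramble-shRNA.

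Molecular chaperones help proteins fold, refold after stress, assemble and cross membranes. HSP70 proteins bind exposed stretches of client proteins in an ATP-driven cycle, J-domain proteins deliver clients and stimulate that ATPase, HSP110 proteins exchange the nucleotide, and HSP90 acts later on partly folded clients such as kinases and steroid receptors. Many of these genes are induced by heat shock factor HSF1, which binds repeated GAA units called heat shock elements, and cancer cells often depend on high chaperone levels.

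The stretch of 250 bases before the transcription start is shown for 4 of the genes, because the differences described below include the heat-inducible genes and this is where a heat shock element can stand. The sequences are those of RefSeq for GRCh38.p14, read 5′ to 3′ in the direction of the gene, and the table held 55 of the 66 genes. Capitals mark a match to 3 alternating units (GAANNTTCNNGAA or TTCNNGAANNTTC) in HSPA6, HSPA8 and DNAJB6, and to 2 units (GAANNTTC or TTCNNGAA) in HSPA1A, which has no match to 3. Both strands were searched, and every match to 3 units also holds matches to 2. HSPA1A is shown from chr6:31815293-31815542 on the plus strand, HSPA6 from chr1:161524290-161524539 on the plus strand, HSPA8 from chr11:123062137-123062386 on the minus strand and DNAJB6 from chr7:157336754-157337003 on the plus strand.
HSPA1A: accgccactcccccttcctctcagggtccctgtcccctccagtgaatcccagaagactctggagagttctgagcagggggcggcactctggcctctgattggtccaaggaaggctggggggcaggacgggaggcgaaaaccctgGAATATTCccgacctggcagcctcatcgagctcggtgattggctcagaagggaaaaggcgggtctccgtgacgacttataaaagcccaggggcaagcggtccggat
HSPA6: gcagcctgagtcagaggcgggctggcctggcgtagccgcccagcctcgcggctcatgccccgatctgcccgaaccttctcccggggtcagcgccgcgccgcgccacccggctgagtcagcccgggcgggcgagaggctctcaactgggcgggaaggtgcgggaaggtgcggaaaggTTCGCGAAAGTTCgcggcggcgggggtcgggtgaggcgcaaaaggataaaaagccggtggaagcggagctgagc
HSPA8: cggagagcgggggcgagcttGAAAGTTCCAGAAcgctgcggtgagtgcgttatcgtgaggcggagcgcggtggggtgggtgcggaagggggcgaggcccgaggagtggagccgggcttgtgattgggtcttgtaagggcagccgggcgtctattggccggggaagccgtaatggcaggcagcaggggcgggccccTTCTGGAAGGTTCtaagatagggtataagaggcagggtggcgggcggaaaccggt
DNAJB6: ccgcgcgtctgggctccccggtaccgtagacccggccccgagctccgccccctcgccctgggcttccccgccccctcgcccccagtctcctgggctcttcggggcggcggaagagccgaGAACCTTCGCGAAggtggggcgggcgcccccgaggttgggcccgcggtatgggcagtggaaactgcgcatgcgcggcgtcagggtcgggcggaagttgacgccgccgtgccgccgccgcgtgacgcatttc
The match in HSPA1A lay 106 to 99 bases before the start, that in HSPA6 74 to 62 bases, and that in DNAJB6 131 to 119 bases. HSPA8 had 2 stretches, at 230 to 218 and at 55 to 43 bases before the start. These were the only 3 of the 55 genes (5.45%) with a match to 3 units, against 120 of the 27305 promoters in the table (0.439%). A match to 2 units stood in 12 of the 55 (21.8%), against 3208 of all promoters (11.7%). The 4 genes shown all had differences below 0, but genes with a match to 2 units only lay on both sides. HSPB6 (1.12), DNAJC15 (0.82), DNAJB7 (0.77), HSPB1 (0.14) and HSPB8 (0.05) were above 0. HSPA1A (-0.94), DNAJA1 (-0.40), HSPB3 (-0.28) and HSPA1L (-0.01) were below. DNAJB7, HSPB8, HSPB3 and HSPA1L did not pass the filter described below. Whether a match goes with a difference was not tested. The windows of HSPA1A and HSPA1L overlap on opposite strands, and the same stretch, GAATATTC, counts for both. DNAJB1, a gene well known to be heat-inducible, had neither in this window, and a match is a run of letters, not a measured binding site.

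LYAR itself, the check of the labels, read 1036 in LYAR-shRNA cells and 1925 in Scramble-shRNA cells, a difference of -0.89 or 53.8% of the Scramble-shRNA value, from 1 probe set at chromosome 4, 4320336 to 4342744, in hg18. Median probe-set intensity was 120.7 in LYAR-shRNA cells and 116.1 in Scramble-shRNA cells, and the random control probes read 30.3 in LYAR-shRNA and 32.7 in Scramble-shRNA cells. Of 12 colon epithelium markers, 8 passed the intensity filter described next, EPCAM, KRT8, KRT18, KRT19 and CDX2 among them, and none of the 8 differed by 1.5-fold. KRT20, CEACAM5, GPA33 and CDX1 did not pass. Of 12 blood cell markers, 6 passed, 4 of them only through the Scramble-shRNA array, which sets their sign, and all 6 were at least 1.5-fold lower in LYAR-shRNA cells, with a summed intensity of 758 against 2281 over the whole list, while PTPRC, MS4A1, LYZ and ALAS2 were among those that did not pass. Of 7 embryonic kidney or neuronal markers 1 passed (TUBB3, -0.53), and of 8 fibroblast markers 1 passed (COL1A1, with 0.42 in the probe set clear of the random probes). The part of these markers in the chaperone values was not tested, and in a bulk population fewer cells of a type and less RNA per cell cannot be told apart.

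Probe sets of a gene were averaged as log2 intensity to give its level, and a gene passed the filter if its brighter array reached 105.9, the median of all genes. Of the 66 chaperone genes, 49 passed and 17 did not. Among those 49, 26 had a difference below 0 and 23 above 0, and 45.4% of all 12682 genes that passed were below 0. At 1.5-fold or more, 8 of the 49 were lower and 3 were higher in LYAR-shRNA cells, where the shares over all genes were 11% lower and 15% higher. At 2-fold or more 4 were lower (HSPA6, DNAJB4, DNAJB5 and DNAJC5G) and 1 was higher (HSPB6), against 3.56% and 5.06% of all genes. The median difference of the 49 was -0.05, against 0.05 for all genes that passed, and members lay on both sides of 0. Of the 49, 7 passed on 1 array only, and for those the sign of the difference was set by passing: DNAJB4, DNAJB5, DNAJB14 and DNAJC5G were lower, and HSPB6, DNAJC13 and DNAJC15 were higher. The only spread at hand is that between probe sets of a gene. Over all genes with several probe sets, without the filter, its pooled SD was 0.590 on the log2 scale. It comes from the same 2 arrays and does not measure variation between arrays or cell populations. Over the 31 chaperone genes that passed with several probe sets, the pooled SD was 0.320, the value used below. In 21 of those 31 every probe set pointed the same way, and in 10 the probe sets had both signs. The same share over all genes was not counted, so these counts are a description only.

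**Figure D1:**
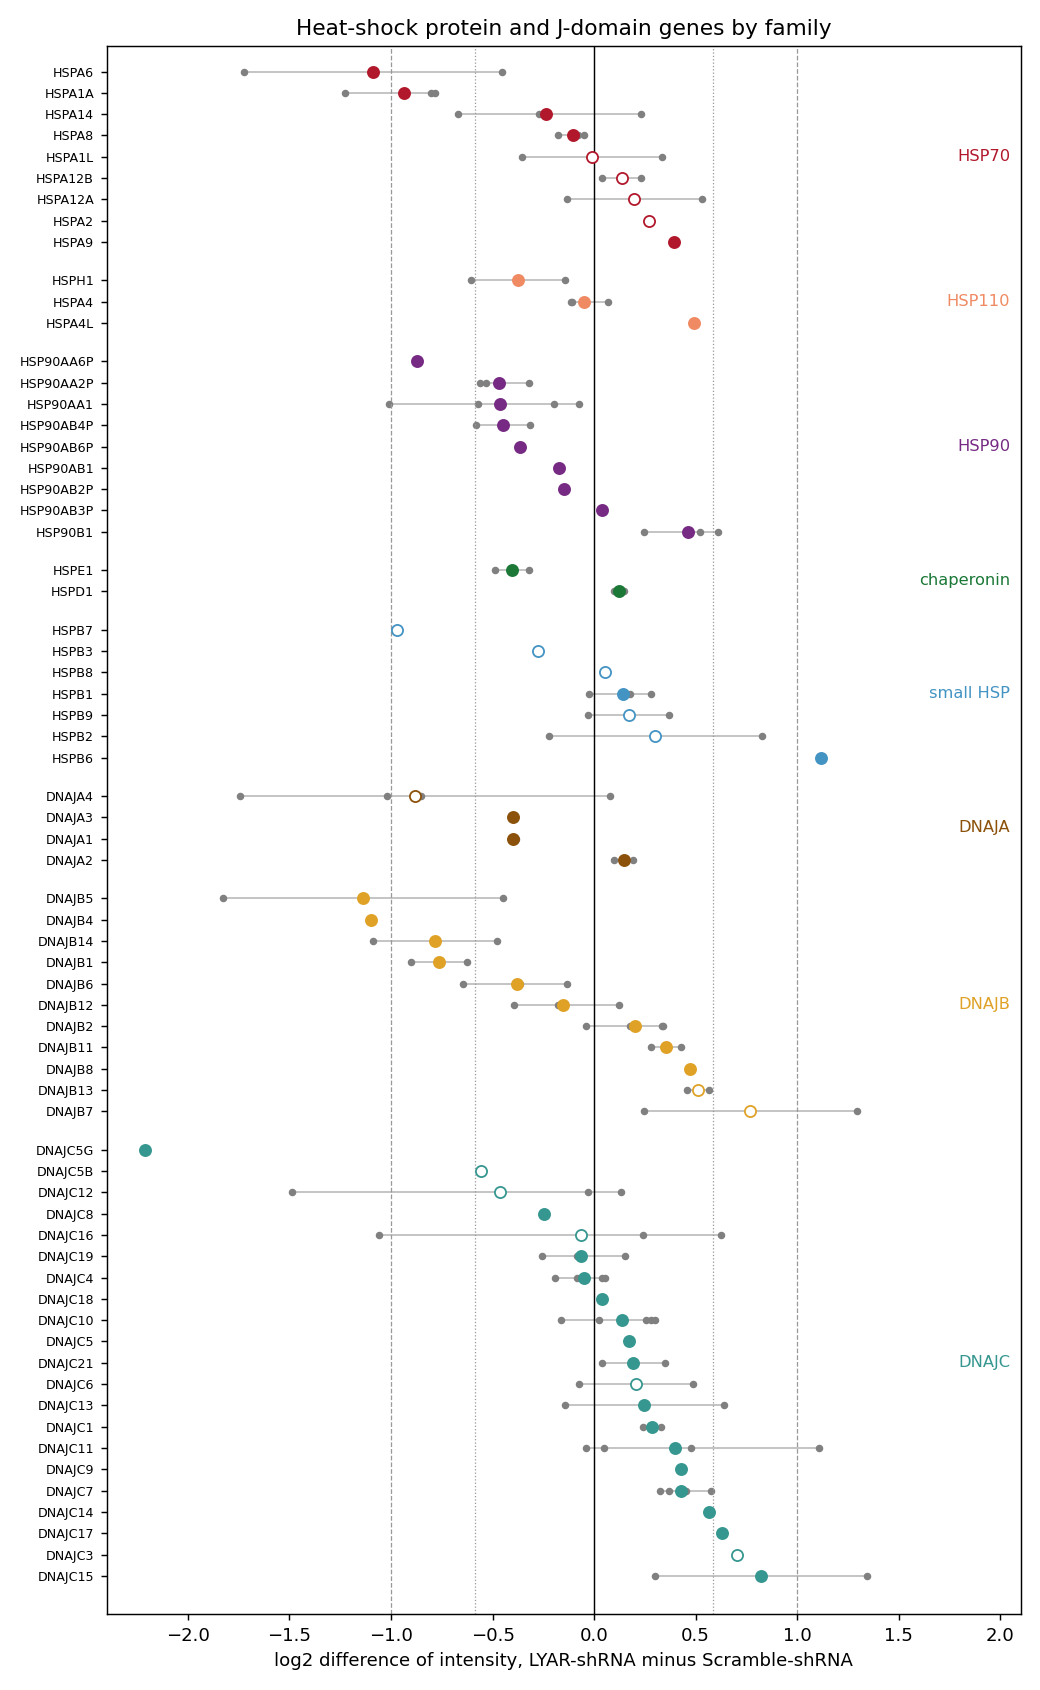
Log2 difference of intensity, LYAR-shRNA minus Scramble-shRNA, for the 66 genes by family (x axis, log2 units). Large points are genes, filled where they passed the filter and open where they did not, grey points are single probe sets, dotted lines mark 1.5-fold and dashed lines 2-fold. Of the filled points, the HSP90 (7 of 9) and DNAJB (6 of 9) genes lie mostly left of 0 and the DNAJC genes (12 of 16) mostly right. Of the HSP90 genes on the left 5 are pseudogenes, and of the 3 that are not, 2 lie left. The sign was set by passing on the Scramble-shRNA array only for DNAJB4, DNAJB5, DNAJB14 and DNAJC5G. It was set by the LYAR-shRNA array only for DNAJC13 and DNAJC15. Of all genes that passed, 45.4% were below 0 and 54.6% above. Points drawn from signal close to the random probes, such as DNAJC5G, have no exact position.

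In the HSP70 family, the stress-inducible cytosolic genes were lower while the constitutive gene was nearly level. HSPA1A, the main stress-inducible HSP70, read 6153 in LYAR-shRNA cells and 11784 in Scramble-shRNA cells, a difference of -0.94. Its 3 probe sets read 3414, 6499 and 10498 in LYAR-shRNA cells against 7981, 11349 and 18065 in Scramble-shRNA cells, with differences of -1.23, -0.80 and -0.78. All of them were lower in LYAR-shRNA cells, and the smallest of the 3 drops exceeded the pooled SD between probe sets. The set with -1.23 is placed at chromosome 6, 31903666 to 31906010 in hg18, apart from the other sets, which span 31891298 to 31893698. HSPA1B, a near-identical neighbouring copy, is not listed on the array, but the set with -1.23 is placed where that copy lies. Signal from the copies cannot be told apart, so the values given for HSPA1A may hold both.

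HSPA6, an HSP70 gene that is nearly silent without stress, had 294 in LYAR-shRNA cells and 625 in Scramble-shRNA cells, a difference of -1.09. The 2 probe sets, at chromosome 1 from 159760659 to 159763311, disagreed in size: 131 against 433 (-1.72) and 661 against 904 (-0.45). Both were lower in LYAR-shRNA cells. HSPA8, the constitutive cytosolic HSP70, measured 14318 in LYAR-shRNA cells and 15375 in Scramble-shRNA cells, a difference of -0.10 with probe sets from -0.18 to -0.05, within the spread between probe sets. HSPA14, a ribosome-associated HSP70-like protein, gave -0.24 with probe sets of both signs. HSPA9, mortalin, the HSP70 of the mitochondrial matrix, was the 1 gene of the 5 passing that was higher, with 14788 against 11240 and a difference of 0.40 from 1 probe set at chromosome 5, 137918922 to 137939014. HSPA1L and HSPA2, known from testis, and HSPA12A and HSPA12B did not pass the filter.

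The HSP110 genes went in different directions. HSPH1, the heat-inducible nucleotide exchange factor HSP105, had 396 in LYAR-shRNA cells and 513 in Scramble-shRNA cells (-0.37), with probe sets at -0.61 and -0.14. HSPA4, its constitutive relative, measured 1559 against 1614 (-0.05). HSPA4L, a relative prominent in testis, had 154 against 109, a difference of 0.49 from 1 dim probe set.

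**Figure D2:**
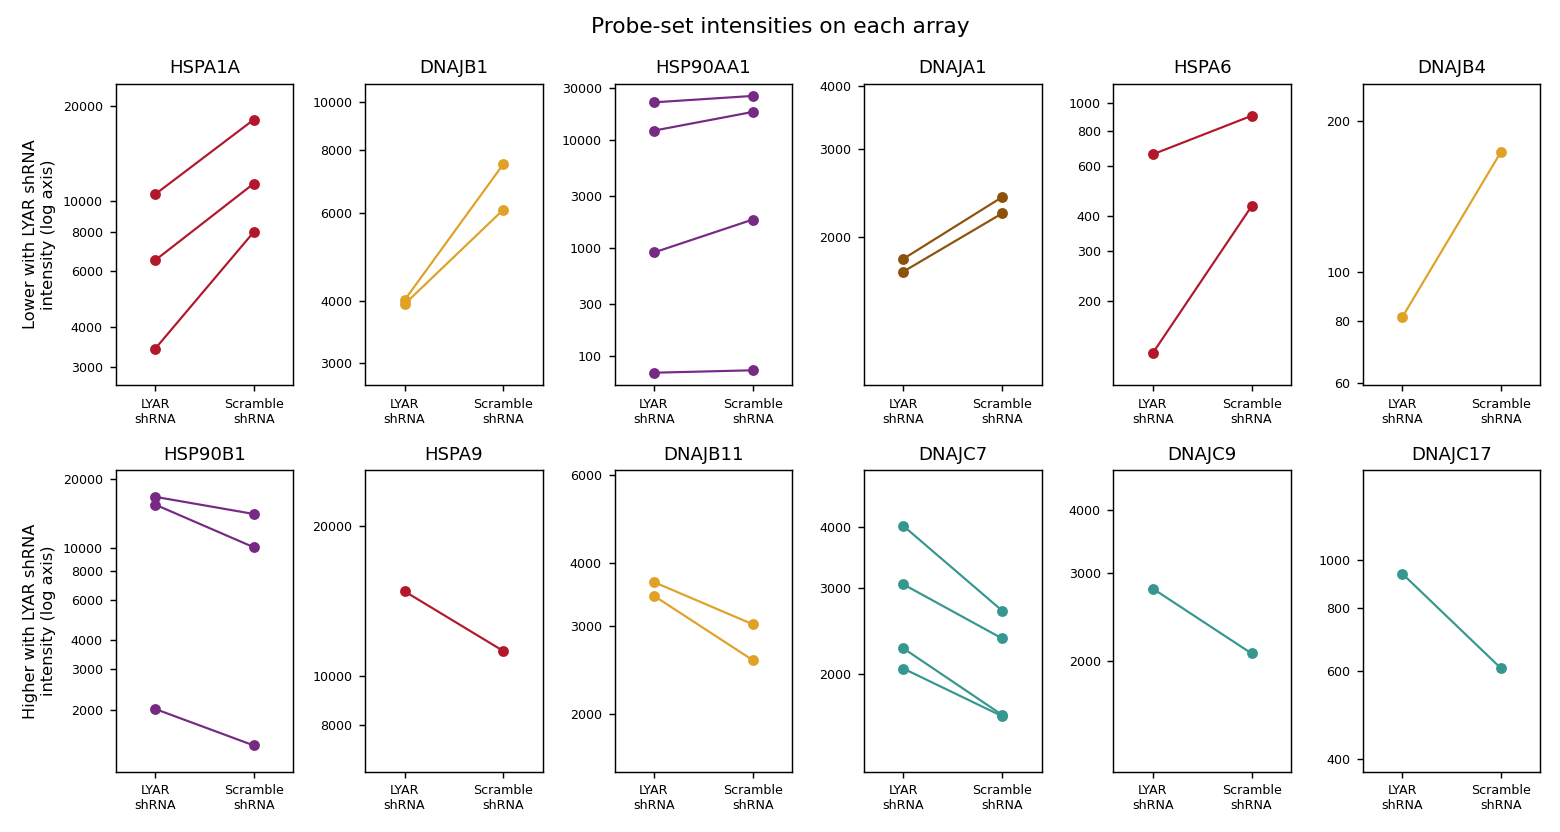
Intensity of each probe set (y axis, log scale) in LYAR-shRNA cells, left, and in Scramble-shRNA cells, right, for 6 genes that were lower (top) and 6 that were higher (bottom) with LYAR shRNA; these 12 genes were picked after their values were seen. Lines join the same probe set. All 3 HSPA1A probe sets and both DNAJB1 probe sets slope up to the right, and all 3 HSP90B1 and all 4 DNAJC7 probe sets slope down.

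None of the 3 HSP90 genes that are not pseudogenes differed by 1.5-fold; both cytosolic forms had differences below 0 and the form of the endoplasmic reticulum one above 0. HSP90AA1, the stress-inducible cytosolic form, had 2036 in LYAR-shRNA cells and 2809 in Scramble-shRNA cells, a difference of -0.46. On chromosome 14, its 4 probe sets were all lower in LYAR-shRNA cells but by unequal amounts, with 906 against 1827 (-1.01), 12195 against 18153 (-0.57), 22290 against 25556 (-0.20) and 69.7 against 73.4 (-0.08). HSP90AB1, the constitutive cytosolic form, read 29153 against 32902 (-0.17) from 1 probe set, less than the spread between probe sets. HSP90B1, which encodes the reticulum chaperone GRP94, had 8050 in LYAR-shRNA cells and 5849 in Scramble-shRNA cells, a difference of 0.46. The 3 probe sets, on chromosome 12 from 102848318 to 102865833, gave 16688 against 14064, 15447 against 10106 and 2024 against 1408, that is 0.25, 0.61 and 0.52, and all were higher in LYAR-shRNA cells.

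A further 6 HSP90 pseudogene symbols carried probe sets, and their differences ran from -0.87 to 0.04 with 5 of 6 below 0. HSP90AA6P was at -0.87 (1063 against 1945), HSP90AA2P at -0.47, HSP90AB4P at -0.45, HSP90AB6P at -0.36, HSP90AB2P at -0.15 and HSP90AB3P at 0.04. Pseudogenes share long stretches with HSP90AA1 or HSP90AB1, so these probe sets may read the parent transcripts and are uncertain. With the pseudogenes left out, 43 chaperone genes passed, of which 22 were above 0 and 21 below.

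The chaperonin pair of the mitochondrial matrix differed. HSPD1, which encodes HSP60, read 5326 in LYAR-shRNA cells and 4895 in Scramble-shRNA cells (0.12), with probe sets of 0.10 and 0.15. HSPE1, which encodes its lid HSP10 and lies next to it on chromosome 2, read 3166 against 4191 (-0.40), with probe sets of -0.49 and -0.32. Both probe sets of HSPE1 were lower in LYAR-shRNA cells and both of HSPD1 were slightly higher.

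Of 7 small heat-shock protein genes, 2 passed. HSPB1, which encodes HSP27, was among the brightest signals of both arrays, with 47630 in LYAR-shRNA cells and 43143 in Scramble-shRNA cells, a difference of 0.14 over 4 probe sets from -0.02 to 0.28. The highest intensity of any probe set was 63058 in LYAR-shRNA cells and 60044 in Scramble-shRNA cells, and what the closeness of HSPB1 to the top of the scale did to its difference was not tested. HSPB6, a muscle small heat-shock protein, had 187 against 86.2, a difference of 1.12 from 1 probe set at chromosome 19, 40937309 to 40939770. HSPB2, HSPB3, HSPB7, HSPB8 and HSPB9 did not pass, and CRYAB, alpha-B-crystallin, which the symbol rule does not cover, did not pass either.

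Among class A J proteins, which carry the same domain order as bacterial DnaJ, DNAJA1 and DNAJA3 were lower. DNAJA1, the main cytosolic HSP70 partner of this class, had 1757 in LYAR-shRNA cells and 2314 in Scramble-shRNA cells (-0.40). Its probe sets read 1706 and 1809 against 2229 and 2402, and both were lower by nearly the same factor. DNAJA3, the mitochondrial J protein TID1, read 1760 against 2322 (-0.40) and DNAJA2, a second cytosolic partner, 2184 against 1975 (0.15). DNAJA4, a heat-inducible gene, did not pass: all 4 probe sets lay near the random probes on at least 1 array, and 2 of them were lower, by at least 1.21-fold and at least 1.86-fold, in LYAR-shRNA cells.

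In class B, 9 of 11 genes passed, 6 below 0 and 3 above, and 4 were at least 1.5-fold lower, where 45.4% of all genes were below 0 and 11% were that much lower. Of those 4, DNAJB4, DNAJB5 and DNAJB14 passed through the Scramble-shRNA array only. DNAJB1, HSP40, the stress-inducible partner of HSP70, had 3973 in LYAR-shRNA cells and 6746 in Scramble-shRNA cells, a difference of -0.76. The probe sets lie on chromosome 19 between 14486581 and 14490201 and read 4010 against 7488 (-0.90) and 3937 against 6077 (-0.63). Both were lower in LYAR-shRNA cells. DNAJB4, another heat-inducible member, read 81.4 against 174 (-1.10) from 1 dim probe set at chromosome 1, 78243223 to 78255586. DNAJB5 had 1 probe set clear of the random probes, with 130 against 178 (-0.45), and another that was at least 2.31-fold lower, with 39.5 against 140. DNAJB14, a J protein of the reticulum membrane, had 106 against 182 (-0.78) with probe sets at -1.09 and -0.48.

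DNAJB6, a suppressor of protein aggregation, read 710 in LYAR-shRNA cells and 925 in Scramble-shRNA cells (-0.38), with 3 probe sets from -0.65 to -0.13. DNAJB12, a reticulum-membrane partner of DNAJB14, gave -0.15 and DNAJB2, a neuronal co-chaperone, 0.20. DNAJB11, the lumenal J protein ERdj3 that serves the reticulum HSP70, was higher with 3555 against 2784 (0.35), and its probe sets read 3669 and 3445 in LYAR-shRNA cells against 3023 and 2563 in Scramble-shRNA cells. DNAJB8, known from testis, read 186 against 134 (0.47) from 1 probe set. DNAJB7 and DNAJB13 did not pass.

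Class C J proteins, which share only the J domain, leaned the other way. Of the 16 that passed, 12 were above 0, against 54.6% of all genes that passed. Among these 16, DNAJC13 and DNAJC15, both above 0, passed through the LYAR-shRNA array only. DNAJC5G, below 0, passed through the Scramble-shRNA array only. DNAJC7, which binds both HSP70 and HSP90, had 2739 in LYAR-shRNA cells and 2033 in Scramble-shRNA cells (0.43), with 4 probe sets from 0.32 to 0.58, all higher. DNAJC9, which also handles histones, read 2787 against 2069 (0.43) and DNAJC17, linked to splicing, 936 against 606 (0.63), each from 1 probe set. DNAJC14, a J protein of the reticulum membrane, had 663 against 448 (0.57). These 4 genes were clear of the random probes on both arrays.

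DNAJC15, a J protein of the mitochondrial import motor, read 475 in LYAR-shRNA cells and 386 in Scramble-shRNA cells (0.30) in its brighter probe set, and the other lay near the random probes on both arrays, so its count among the genes 1.5-fold higher rests on that dim set. DNAJC11, of the mitochondrial outer membrane, averaged 0.40 over 4 probe sets that ranged from -0.04 to 1.11. The 4 that passed below 0 were DNAJC5G, DNAJC8, a splicing-related protein (-0.25), DNAJC19, another import-motor protein (-0.06), and DNAJC4 (-0.05). DNAJC5G, a testis relative of the synaptic vesicle protein DNAJC5, read 45.6 against 211, at least 3.48-fold lower in LYAR-shRNA cells, from 1 probe set at chromosome 2, 27351792 to 27357800. DNAJC3, the reticulum J protein P58IPK, was at least 1.55-fold higher (101 against 62.2) and did not pass.

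**Figure D3:**
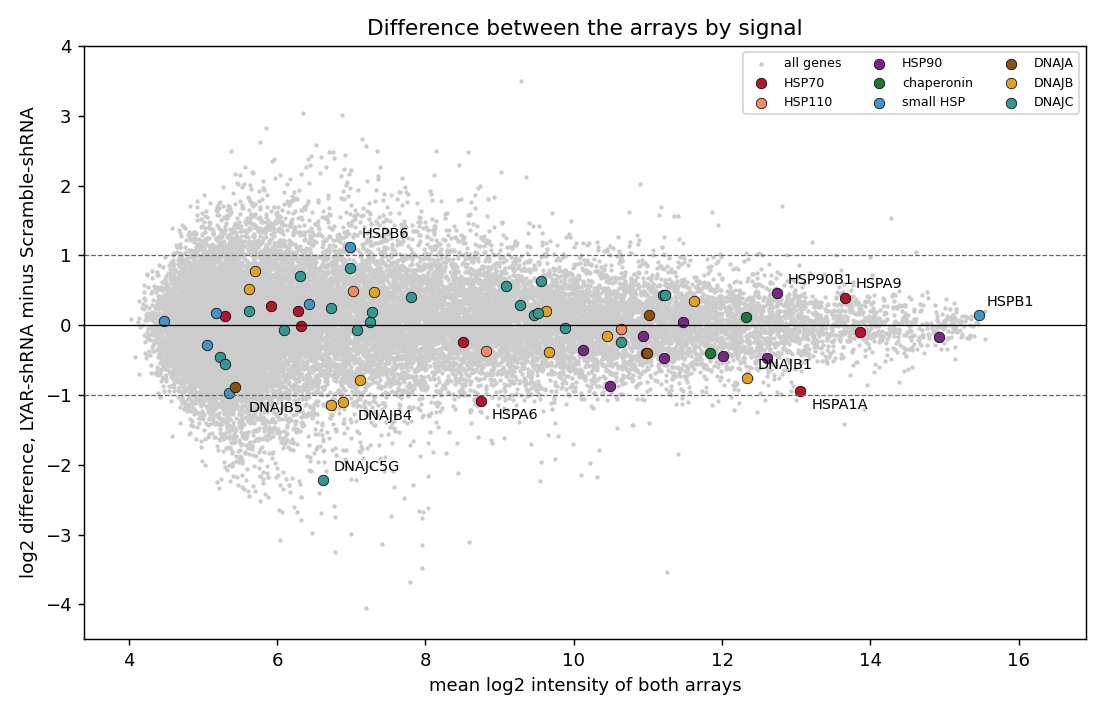
Log2 difference, LYAR-shRNA minus Scramble-shRNA (y axis), against the mean log2 intensity of both arrays (x axis) for all 23619 genes (grey) and the 66 chaperone genes (coloured by family). Dashed lines mark 2-fold. The scatter of all genes narrows as intensity rises; HSPA1A at -0.94 and DNAJB1 at -0.76 lie in the narrow right-hand part, and HSPB6, DNAJB4, DNAJB5 and DNAJC5G in the wide left-hand part.

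The spread of all genes narrowed with intensity, which bears on how a given fold is read. Among the 4228 brightest of the genes that passed, with a mean intensity of at least 1114, a group taken after the values were seen, 25 were chaperone genes of the set. Of these 25, 3 were at least 1.5-fold lower in LYAR-shRNA cells (HSPA1A, DNAJB1 and the pseudogene HSP90AA6P) and 0 were higher, where the shares over all 4228 genes were 6.05% and 6.08%. Without replicate arrays these counts have no test.

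Grouped by induction rather than by family, 24 genes known as heat-inducible were listed, 23 were measured and 20 passed. Of these 20, 17 were lower in LYAR-shRNA cells (45.4% of all genes were), 7 by 1.5-fold or more (11% of all genes) and 2, HSPA6 and DNAJB4, by 2-fold or more (3.56%). None was 1.5-fold higher (15%), and the median difference was -0.41. DNAJB4 was the 1 gene of the 20 that passed through the Scramble-shRNA array only. The list also holds HSPA8 and HSP90AB1, which are described above as constitutive forms, and both count among the 17. Some of the 17 were below 0 by less than the 0.320 used above as the spread. These were HSPA8 (-0.10), HSP90AB1 (-0.17), SERPINH1 (-0.09) and FKBP4 (-0.30). Of the 20 genes, 13 belong to the symbol families above, of which 10 were below 0 and HSPA4L, HSPB1 and HSPD1 were above. The members outside this group had 20 above 0 and 16 below among the 36 that passed, with a median of 0.09. The list was written with earlier results of these data known, so it gives no independent evidence of its direction.

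The other 7 heat-inducible genes that passed fall outside the symbol families, and all 7 were below 0. DEDD2, a death-effector-domain protein, read 1148 in LYAR-shRNA cells and 2091 in Scramble-shRNA cells (-0.87), AHSA1, which activates the HSP90 ATPase, 2674 against 4436 (-0.73), and CHORDC1, an HSP90 co-chaperone, 154 against 234 (-0.60, with probe sets at -1.07 and -0.13). BAG3, a nucleotide exchange factor for HSP70 that acts in aggregate clearance, had 4017 against 5517 (-0.46), and STIP1, the HOP protein that bridges HSP70 and HSP90, 10752 against 14295 (-0.41). FKBP4, a prolyl isomerase bound to HSP90, gave -0.30 and SERPINH1, the collagen chaperone HSP47, -0.09, the last with probe sets of both signs.

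Among the genes of the regulators, HSF1, the master factor of the heat shock response, read 1606 in LYAR-shRNA cells and 1793 in Scramble-shRNA cells (-0.16), a difference below the spread between probe sets. HSF2, a related factor, had 84.8 against 126 (-0.57) in the probe set clear of the random probes and was at least 2.29-fold lower in the other. It passed through the Scramble-shRNA array only, which sets its sign. HSBP1, a small protein that binds HSF1, gave 0.40 from probe sets of -0.04 and 0.85. HSBP1L1 gave 0.30 and HSF4 0.17. Transcript levels do not show the activity of HSF1, which is controlled after translation.

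**Figure D4:**
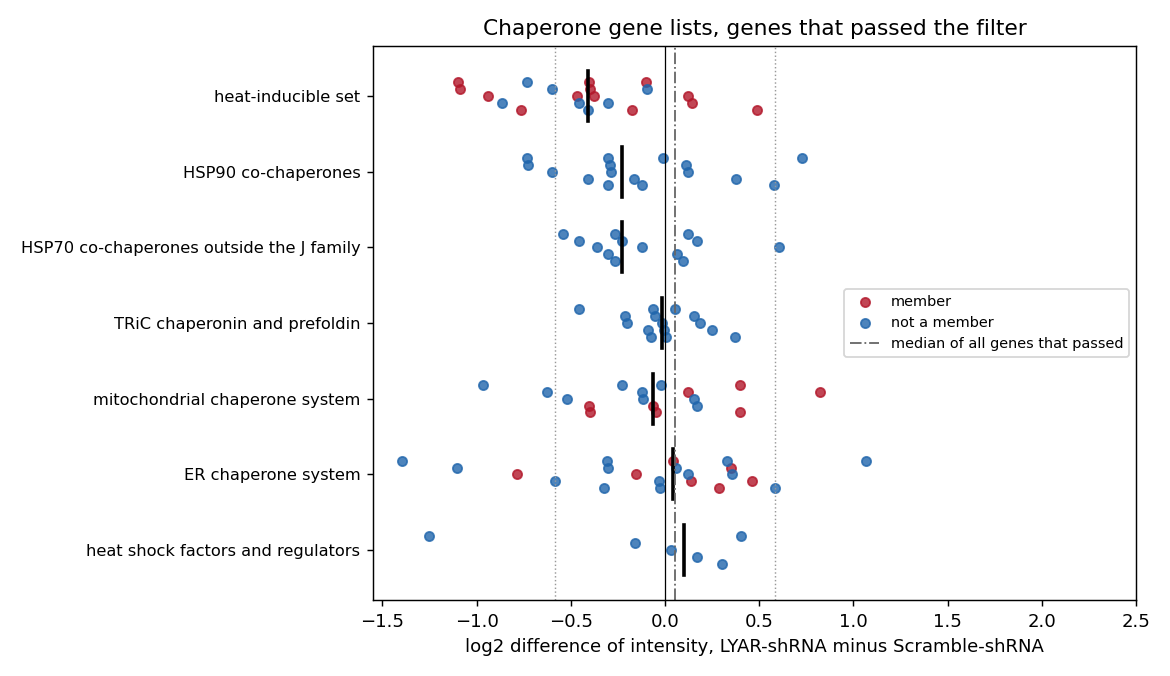
Log2 difference, LYAR-shRNA minus Scramble-shRNA (x axis), for the genes of each chaperone list that passed the filter (rows). Red points are genes of the symbol families, blue points other genes, thick bars the median of each list, the dash-dotted line the median of all genes that passed, and dotted lines 1.5-fold. The heat-inducible set has its median at -0.41, and the TRiC and prefoldin genes lie within 1.5-fold of 0.

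The co-chaperones of HSP90 numbered 16, all passing, with 11 below 0 and 5 above and a median of -0.23. Besides AHSA1 and CHORDC1, FKBPL, a further HSP90-binding protein, was 1.5-fold lower or more, at 518 in LYAR-shRNA cells against 858 in Scramble-shRNA cells (-0.73). FKBP5, a glucocorticoid-induced isomerase, was the 1 that was higher by that much, at 260 against 157 (0.73, probe sets 0.27 to 0.99), and PPID, another isomerase, gave 0.58 and CDC37, the kinase co-chaperone, 0.38. Of 13 passing HSP70 co-chaperones outside the J family, 8 were below 0 and 5 above, with BAG2 at 0.60, BAG3 at -0.46 and a median of -0.23. BAG4 read 281 against 637 (-1.18) in its brighter probe set and lay near the random probes on both arrays in the other (0.10). The cytosolic chaperonin TRiC and its partner prefoldin, which fold actin and tubulin, had 6 genes above 0 and 9 below, none by 1.5-fold, a median of -0.01, and extremes of 0.37 for CCT4 and -0.46 for PFDN4.

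In the mitochondrial list, 8 of the genes belong to the symbol families, 4 above 0 and 4 below. Over all 17 passing genes 6 were above 0 and 11 below (45.4% of all genes were below), with a median of -0.06. DNAJC15, above 0, passed through the LYAR-shRNA array only. HSPA9 and DNAJC11 were on the higher side, while the protease subunit CLPP (-0.63) and the disaggregase CLPB (-0.52) were on the lower side. The probe sets of CLPX, the partner of CLPP, disagreed, with -0.02 in the one clear of the random probes and at least 3.54-fold lower in the other. In the reticulum list 7 symbol-family genes passed, 5 above 0 and 2 below, and over all 21 passing genes 11 were above 0 and 10 below, with 2 higher and 4 lower by 1.5-fold or more (15% and 11% of all genes). SEC63, a J protein of the reticulum translocon without a DNAJ symbol, had 1958 in LYAR-shRNA cells against 936 in Scramble-shRNA cells (1.06), and CANX, the lectin chaperone calnexin, gave 0.59 and HSP90B1 0.46. HERPUD1, a stress-induced degradation factor, read 2036 against 4368 (-1.10), DNAJB14 gave -0.78, and SDF2L1, a partner of DNAJB11, stood at 2378 against 3567, at the 1.5-fold line. The fourth gene lower by that much was DNAJB9, described below, and PDIA4 (-0.32), HSPA5 (-0.31) and HYOU1 (-0.30) were also below 0. Of the 4, DNAJB9 and DNAJB14 passed through the Scramble-shRNA array only, which sets their sign.

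Of 10 chaperones known from testis, 2 passed (DNAJB8 and DNAJC5G), and of 5 small heat-shock proteins known from muscle, 1 passed (HSPB6). Of 5 J proteins without a DNAJ symbol in the array annotation, 3 passed: SEC63, the clathrin-uncoating kinase GAK (-0.43) and the iron-sulfur cluster co-chaperone HSCB (-0.02).

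The 4 genes left out by the symbol rule had differences from -1.40 for DNAJB9 to -0.06 for HSPBAP1. Of the members, only DNAJC5G, near the random probes, was lower than DNAJB9. DNAJB9, the reticulum J protein ERdj4, read 111 in LYAR-shRNA cells and 268 in Scramble-shRNA cells (-1.27) in the probe set clear of the random probes and was at least 2.30-fold lower in the other. HSPA5, the reticulum HSP70 also called BiP, read only 124 against 153 (-0.31) from 1 probe set, HSPBP1, an HSP70 nucleotide exchange factor, 1766 against 2265 (-0.36), and HSPBAP1 did not pass. Under older symbols in the array annotation stood 12 further J-protein and HSP genes, which the rule does not reach. Of them 6 passed, 4 above 0 and 2 below, where 45.4% of all genes were below. DNAJC22 read 386 against 228 (0.76) and the read-through gene DNAJC25-GNG10, which overlaps DNAJC25, 1744 against 1132 (0.62).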

How the data were processed

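Per the labels' protocols, oligo dT cDNA from total RNA was labelled with Cy3 and hybridised to 1 Roche NimbleGen array per group. The deposited intensities are linear RMA summaries of probe sets, a method named in the submitters' processing notes; its version and settings were not given in the sources used here. Nearly all probe sets (45031) hold 3 probes and are placed in hg18, per the file headers. The deposited score column (SE_EXPRS) was not used. Depth is not defined for arrays.

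Probe sets were joined by gene ID (2086 have none), symbols were updated from RefSeq GRCh38.p14 (38916 probe sets matched; 3 member symbols changed), and log2 intensities were averaged per gene with no pseudocount. The filter was the brighter array at 105.9 or more. A value under 2 times that of the random probes (60.7 for LYAR-shRNA, 65.4 for Scramble-shRNA) was a bound, and folds of probe sets against it are written as at least N-fold. Counts, medians and figures use measured values. Called means at or past 1.5-fold or 2-fold. No test was possible with 1 array per group.

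Members and lists were chosen with earlier results of these data known. Named were LYAR, every HSP90, chaperonin, HSP110 and DNAJA gene, up to 6 passing genes per direction in the other families and up to 3 per direction in each list. STIP1, FKBP4, SERPINH1, DEDD2, SDF2L1, PDIA4, HYOU1, DNAJC3, the genes left out by the symbol rule, those under older symbols and the marker genes that did not pass were named outside that rule, after their values were seen. Some marker genes are not reported here. The scripts (Python 3.11.15, pandas 2.3.3, numpy 2.4.6, statsmodels 0.14.6, matplotlib 3.10.9) were tested on simulated data. Alternatives were the brightest probe set, the deposited series table (99 of the 138 probe sets), centring, a lowess trend, quantile normalization, an offset of 32, 3 other filters and pseudogenes left out.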

Additional observations from a re-analysis of the deposited data

How the results depend on the processing

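No paired analysis was possible because each group has 1 array, and no replicate could be left out. The count of members at least 2-fold higher, 1 as reported, was 2 with the brightest probe set and 0 with the series table or an offset, and the count at least 2-fold lower, 4 as reported, was 0 with the series table and 1 with an offset. At 1.5-fold, the 3 higher became 5 with the brightest probe set or no filter and 1 with the series table. The 8 lower became 4 with the series table. That table holds fewer probe sets, the filter was set anew at the median of its genes, and 34 members passed. HSPA6 kept its difference of -1.09 there but did not pass. The share of passing members above 0 was 46.9% as reported, 51.9% with the brightest probe set and 51.2% without pseudogenes, so the members as a whole have no settled direction. The median over all measured HSP70 genes, -0.01, was 0.23 with the brightest probe set and 0.070 with an offset, and that of the small heat-shock proteins, 0.14, was 0.48 with the series table and 0.63 over genes passing on the mean of both arrays or, in an alternative chosen after seeing the data, on the brighter array. The other family medians kept their sign under the alternatives run. The heat-inducible genes, summarised under the same alternatives after seeing the data, had a median between -0.44 and -0.40, from 5 to 8 genes at least 1.5-fold lower and between 81.0% and 87.0% of passing genes below 0. Of 520 values of single named genes, 496 moved by less than the spread between probe sets, 24 moved more and 5 changed sign. The cause of these moves was not tested. Signal near the random probes limits what can be said of DNAJC5G, DNAJB5, DNAJC15, DNAJA4 and the 12 members with all probe sets near them.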
